A study of Mus musculus with 14 samples.

Results

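The cells described here are the Bcl11b+ Lmx1a+ cells of the E18.5 mouse hindbrain, a small set of labeled Atoh1-lineage cells that carried RNA of both transcription factors together with Pax6. They were chosen by raw UMI counts (unique molecular identifiers, 1 per captured RNA molecule) in cells that passed a floor of 1000 genes and had under 10% mitochondrial UMIs. A member had at least 1 UMI each of Bcl11b, Lmx1a and Pax6, at most 4 UMIs of Eomes, and at most 2 UMIs of Mki67 and Top2a together. The gate held 1305 of the 55054 E18.5 cells kept, or 2.37%, and the whole series held 122658 kept cells in 14 libraries.

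The 6 E18.5 libraries came from 3 control and 3 mutant embryos, 1 embryo per library, each mutant with a control littermate. Control embryos carried Atoh1Cre/+ and Rosa lsl-tdTomato/+, and mutant embryos, called Atoh1S193A/-, carried Atoh1Cre/S193A and Rosa lsl-tdTomato/+. In the Cre allele the recombinase replaces the Atoh1 coding region, so that control embryos also had a null copy, and S193A is a hypomorphic allele that removes a phosphorylation site. The tdTomato label depends on Cre made from the Atoh1 locus, and sorted TdTom+ DAPI- cells of the whole hindbrain were captured, which records the lineage of a cell but not its place in the tissue.

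Atoh1 is the basic helix-loop-helix factor that starts glutamatergic neuron production at the rhombic lip, the dorsal edge of the hindbrain. Its lineage includes cerebellar granule cells, which keep Pax6 and Zic genes, neurons of the cerebellar nuclei and the neurons that migrate to the pontine nuclei. Unipolar brush cells, another rhombic lip product, are known for Eomes, Lmx1a and Otx2. Bcl11b (also called Ctip2) is a zinc finger factor that associates with the BAF chromatin remodeling complex, and Lmx1a is a LIM homeodomain factor of the roof plate and rhombic lip. In the GRCm38 annotation, Bcl11b lies on chromosome 12 from 107910403 to 108003602 on the minus strand and Lmx1a on chromosome 1 from 167689237 to 167848741 on the plus strand.

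Member cells were shallower than most of their neighbors. Their median was 8877 UMIs and 3355 genes per cell, and library medians ran from 7416 to 10511 UMIs. The median was 10998 UMIs in Eomes-high cells and 13078 in double-negative cells, both defined below. The share of members among the 7.5% of cells with the highest doublet scores was 8.12%, against 9.40% of Eomes-high and 3.54% of double-negative cells. Of the member barcodes, 17 also occurred in another E18.5 library, and none of these was a member in both. Hemoglobin, endothelial and microglial genes (10 genes) summed to between 7.79 and 3499 CPM (UMIs of a gene per 1000000 UMIs of the summed cells) in members, with the high value in control 3. A list of 12 roof plate and choroid plexus genes ran from 27.3 to 1222 CPM, led by Ttr, which stood at 1177 CPM in control 1, 791 in mutant 1 and at most 7.87 in the other 4 libraries. Members with a Ttr UMI numbered 65 and those with an Hbb-bs UMI 52.

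The values that chose the cells are a description only. Members had a median of 4 Bcl11b UMIs, with a range of 1 to 27, and a median of 2 Lmx1a UMIs, with a range of 1 to 9. The Lmx1a side rested on 1 UMI in 518 members (39.7%) and the Bcl11b side in 216 (16.6%). Eomes had a median of 1 UMI, and 479 members (36.7%) had none. When each cell was thinned to 5000 UMIs, 803 of 1256 deep enough members (63.9%) still met the gate, 228 became Bcl11b-only and 83 Lmx1a-only. In the same draw, 393 of 10405 Eomes-high cells (3.78%) entered the gate, so that the border moved with depth.

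Cells just inside and just outside the Eomes limit were alike in many of the genes compared. The 175 members with 4 Eomes UMIs had 223 CPM of Car10, 93.2 of Tmem200a and 198 of Calb2. The 166 cells with 5 Eomes UMIs that met all other limits had 244, 82.5 and 350 CPM of the same genes. At the Lmx1a limit, the 518 members with 1 UMI had 184 CPM of Car10 and 45.4 of Galnt14, whereas the 5443 cells with none had 50.6 and 6.57. At the Bcl11b limit, the 216 members with 1 UMI had 153 CPM of Car10 and 38.4 of Optc, and the 865 cells with none had 76.7 and 10.1. No Pax6 UMI was found in 43 cells that met the other limits, and they had 208 CPM of Car10 and 43.9 of Galnt14. A sum of 3 Mki67 and Top2a UMIs kept out 10 cells, while 26 members had a sum of 2.

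For comparison, the other E18.5 cells were divided with the same 6 genes. Cycling cells had more than 2 UMIs of Mki67 and Top2a, and Eomes-high cells were the remaining cells with more than 4 UMIs of Eomes. The rest with a Pax6 UMI were double-negative (neither Bcl11b nor Lmx1a), Lmx1a-only or Bcl11b-only. These classes held 12934, 10525, 21574, 865 and 5443 cells, and 2408 further cells had no Pax6 UMI. UMIs of each class were summed within each library, giving 6 sums per class, and compared by edgeR's quasi-likelihood test with library as a term, and a gene was counted where its Benjamini-Hochberg false discovery rate (FDR) was under 0.05 and its log2 change exceeded 1 in size. Genes that vary with Bcl11b, Lmx1a or Eomes across cells differ between these classes by the choice of cells, so the counts and changes below describe the classes and are not independent evidence. The filter of a UMI in 10% of the cells of either class also fixed many directions. Of the 10 largest rises and 10 largest falls, 8 and 9 against Eomes-high cells and 10 and 8 against double-negative cells reached it only in the class where they were high, Htr2a (10.6% of members, 0.454% of double-negative cells) and Gsc (0.23% of members, 10.8% of Eomes-high cells) among them.

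The label under which the cells were proposed names them cerebellar, with Car10 and Tmem200a as markers beside the 2 gate genes. Car10, a carbonic anhydrase-related protein that binds neurexins, was at 229, 199 and 221 CPM in members of the control libraries and at 235, 254 and 192 in those of the mutant libraries. Its mean over the 6 libraries was 221 ± 23.2 (SD) CPM, against 100 ± 11.8 in Eomes-high, 79.2 ± 13.8 in Lmx1a-only, 51.2 ± 6.0 in Bcl11b-only and 19.6 ± 1.91 in double-negative cells, so that members were highest of these classes in Car10. With every cell thinned to 5000 UMIs, a Car10 UMI was found in 64.7% of members, 34.1% of Eomes-high and 7.26% of double-negative cells. Tmem200a, a transmembrane protein gene, did not follow this order. It averaged 36.6 ± 8.38 CPM in members and 69.7 ± 6.24 in Eomes-high cells, and the mean in double-negative cells was 4.12 ± 0.964. A Tmem200a UMI was found in 20.9% of members. The working markers Car10 and Tmem200a thus differed from each other in which class held the highest level.

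Genes of hindbrain position did not single members out as cerebellar. En1 and En2, homeobox genes of the midbrain and cerebellar territory, had lower means in members than in the other 4 classes of the plot of mean levels, and the difference in En2 from Bcl11b-only cells (-0.51 ± 0.210) was not counted. En2 was at 17.2, 9.55 and 14.3 CPM in control and 19.7, 23.5 and 26.5 CPM in mutant members, with a mean of 18.4 ± 6.15 against 116 ± 10.6 in Eomes-high and 48.8 ± 2.27 in double-negative cells. En1 averaged 10.5 ± 6.51 CPM in members and 76.4 ± 12.9 in double-negative cells. UMIs of Hox genes, which are transcribed caudal to the cerebellar territory, were found as well. At least 1 UMI of 17 Hox genes was found in 448 members (34.3%), mainly of Hoxb2 (20.9% of members), Hoxa2 (12.3%) and Hoxb3 (9.35%). Bcl11b-only cells had nearly the same share, since a Hox UMI was found in 33.5% of them, against 24.2% of Lmx1a-only, 23.0% of double-negative and 21.6% of Eomes-high cells. The summed Hox level was 47.6 to 154 CPM in members, 93.7 to 216 in double-negative and 29.8 to 76.3 in Eomes-high cells. It was 126 to 292 CPM in Bcl11b-only and 60.0 to 170 in Lmx1a-only cells. These sums are over 18 features because Hoxd4 is listed under 2. With every cell thinned to 5000 UMIs, the shares were 23.5% in members, 24.5% in Bcl11b-only, 17.2% in Lmx1a-only, 16.2% in double-negative and 12.7% in Eomes-high cells. None of these classes is known to lack Hox RNA, so no background share could be set beside them, and the part of free RNA in the Hox UMIs was not tested. Since the place of a cell was not recorded, the cells are called here by their gate genes.

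**Figure D1:**
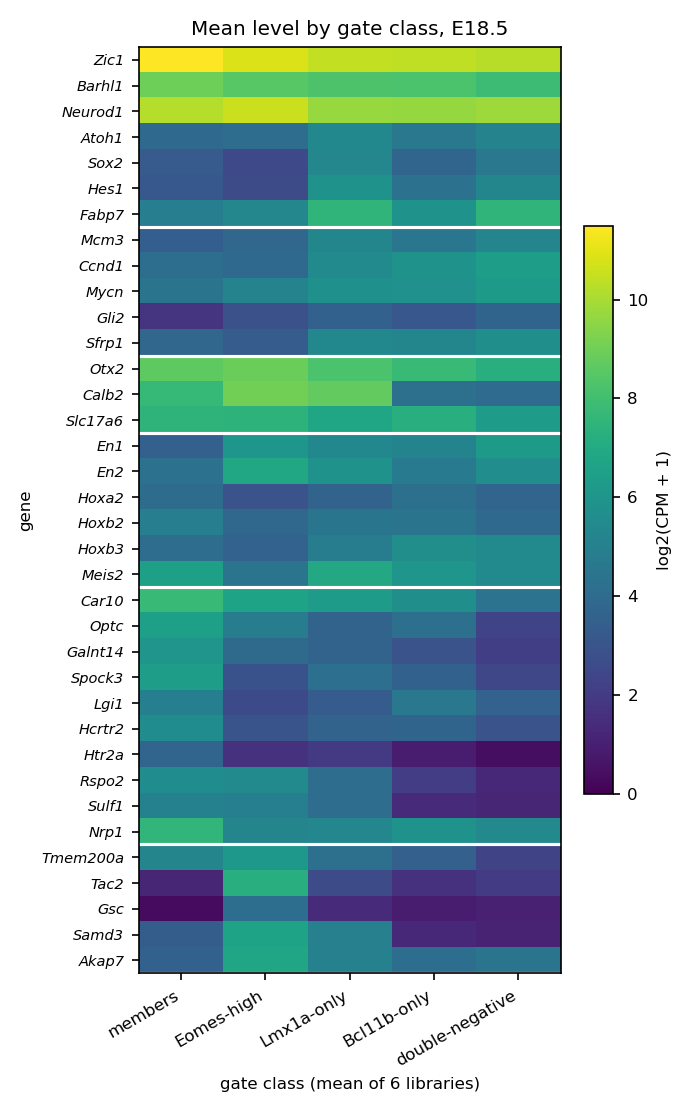
Mean level of selected genes (rows) in 5 gate classes (columns), as log2(CPM + 1) averaged over the 6 E18.5 libraries, with white lines between gene groups. Members are brightest in Car10, Optc, Galnt14, Spock3 and Nrp1, and dark in En1, Tac2 and Gsc.

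Against Eomes-high cells, members had higher levels of Spock3, Pnoc, Id4 and Hcrtr2 and lower levels of Tac2, Gsc, Grp, En1 and En2. Of 9235 genes tested, 341 (3.69%) were counted, 165 higher (1.79%) and 176 lower (1.91%). Spock3, a matrix proteoglycan gene, was at 56.6, 87.3 and 84.6 CPM in control and 76.1, 126 and 83.0 CPM in mutant members, and averaged 6.34 ± 2.3 CPM in Eomes-high cells, a log2 difference of 3.76 ± 0.214 (SE). Pnoc (the nociceptin precursor) was higher by 3.70, Id4 (an inhibitor of helix-loop-helix factors) by 2.94, Col27a1 (a collagen chain) by 2.88 and Lgi1 (a secreted synaptic protein) by 2.64 on the log2 scale. Among receptors, Hcrtr2 for orexin was higher by 2.80, Gpr12 by 2.68, Htr2a for serotonin by 2.54, and Nrp1, the neuropilin that binds semaphorins, by 2.42. Each of these 9 genes was higher in members in all 6 libraries. For all but Nrp1 this was a condition of being named among the largest rises, so it is a description.

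The genes that were lower than in Eomes-high cells included several that were nearly absent from members. Tac2, the neurokinin B precursor, averaged 1.35 ± 1.3 CPM in members and 144 ± 32.3 in Eomes-high cells, and the homeobox gene Gsc 0.25 ± 0.284 and 16.6 ± 2.98. Samd3 was lower by 3.40, Grp (gastrin-releasing peptide) by 3.28, Akap7 (a kinase anchor) by 3.25 and Inhbb (an inhibin subunit) by 3.06 on the log2 scale. The difference in En2 was -2.70 ± 0.0861 and that in En1 -2.60 ± 0.212. Calb2 (calretinin) was counted lower, with a difference of -1.34 ± 0.134, against a median of -0.0041 over all genes tested. Its mean was 209 ± 66.7 CPM in members and 519 ± 106 in Eomes-high cells, while Otx2, a homeobox factor, was at 403 ± 44.6 and 479 ± 35.5 CPM. Neuron maturation genes had 1 of 14 higher (Sncb), none lower and a median of 0.23. Of 9 tested genes of the dissociation and immediate early list, 4 were counted lower (Atf3, Egr1, Ier2 and Jun) and none higher, with a median of -0.49. The median mitochondrial share was 5.46% in members, 5.11% in Eomes-high and 4.62% in double-negative cells, and the part of cell handling in the class differences was not tested.

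Against double-negative cells, members had more of Calb2, Otx2 and Slc17a6 and less of most progenitor genes tested. Of 9441 genes, 707 (7.49%) were counted, 279 higher (2.96%) and 428 lower (4.53%). The largest rises named were Htr2a (5.07), Rspo2 (a secreted Wnt co-activator, 5.02), Sulf1 (a heparan sulfatase, 4.51), Optc (opticin, a leucine-rich proteoglycan, 4.35), Spock3 (4.21) and Galnt14 (a sugar transferase, 4.19), all log2 differences. Optc was at 79.9, 90.9 and 98.9 CPM in control and 85.1, 87.2 and 86.6 CPM in mutant members, and averaged 4.2 ± 0.50 in double-negative and 27.5 ± 4.07 in Eomes-high cells. Calb2 was higher by 3.69 and Otx2 by 1.41, against a median of 0.005 over all genes. Slc17a6, the vesicular glutamate transporter, was higher by 1.11, and the cerebellins Cbln1 and Cbln4, synaptic organizers, by 1.21 and 1.90, while Cbln2 was lower by 1.33.

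Most genes of the progenitor lists were lower in members than in double-negative cells. Many of them reached the filter only in double-negative cells, where they were high, so that their direction was fixed. In the test between genotypes within members, 2 rhombic lip and radial glia, 8 Sonic hedgehog, 9 S phase and 7 granule cell progenitor genes reached it. The counts and medians below are a description. Of 10 tested rhombic lip and radial glia genes, 9 were counted lower and none higher than in double-negative cells, with a median of -1.96. Sonic hedgehog genes had 7 of 12 lower and 1 higher (Cdon), with a median of -1.41, among them Gli2 (-2.35) and Ccnd1 (-2.42). S phase genes had 9 of 17 lower and none higher, with a median of -1.06, though the gate itself limits cycling cells in both classes. Granule cell progenitor genes had 7 of 11 lower, including Atoh1 (-1.29), and 2 higher, Zic1 (1.19) and Barhl1 (1.04), both transcription factor genes. The summed level of the 12 granule cell progenitor genes ran the other way, at 3658 to 3941 CPM in members against 2294 to 2634 in double-negative and 3036 to 3372 in Eomes-high cells. Zic1 alone was at 2875 ± 128 CPM in members and 1221 ± 55.7 in double-negative cells. Atoh1 was at 13.1, 18.6 and 9.51 CPM in control members and 19.7, 11.0 and 13.6 CPM in mutant members, against a mean of 34.1 ± 9.83 in double-negative cells. Among neuron maturation genes, Gap43, a growth cone protein gene, was lower by 2.00 and the other 13 were not counted.

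Galnt14, Optc and Nrp1 were also higher in members than in both single-positive classes. Members differed from Lmx1a-only cells in 524 of 9342 genes (5.61%), 152 higher (1.63%) and 372 lower (3.98%), and from Bcl11b-only cells in 389 of 9468 (4.11%), 137 higher (1.45%) and 252 lower (2.66%). Galnt14 was higher by 2.42 than in Lmx1a-only and by 3.20 than in Bcl11b-only cells, Optc by 3.05 and 2.26, and Nrp1 by 2.26 and 1.71. Calb2 separated the 2 sides, since it was 3.47 higher than in Bcl11b-only cells and, at -0.97 ± 0.355, was not counted against Lmx1a-only cells. Below Lmx1a-only cells were Hes1 (a Notch target, -2.87), Olig2 (-2.82) and Barx2 (a homeobox gene, -2.09), with all 10 tested rhombic lip and radial glia genes lower. Below Bcl11b-only cells were Tlx3 (a homeobox gene, -2.25), Hoxa3 (-2.10), Pou4f2 (a POU factor, -2.11) and Bcl11a, the paralog of Bcl11b (-1.76). The side that reached the filter was not counted for these 2 classes. Hes1, Olig2, Hoxa3 and Pou4f2 averaged only 7.92, 5.46, 4.63 and 5.01 CPM in members. In the test between genotypes within members, 2 rhombic lip and radial glia genes reached the filter. These falls are a description, since the filter fixed the direction of many. Members and the classes that lack a UMI of a gate gene may overlap in true expression, since a cell without a UMI can still express the gene. BAF complex genes, 27 in all, had none higher in any of the 4 class comparisons, and only Bcl11a was lower, against double-negative and Bcl11b-only cells. Over all genes tested, 1.45% to 2.96% were higher in the 4 comparisons. The shares lower were 4.53% against double-negative and 2.66% against Bcl11b-only cells, so nothing is read from these counts about the list.

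GABAergic and glial genes were low in members, while the blood and the choroid plexus genes given above were uneven between libraries. The defining GABAergic gene Gad1 averaged 0.833 ± 0.656 CPM and Gad2 4.48 ± 2.65, and the 10 GABAergic genes together ranged from 27.9 to 64.4 CPM over the 6 libraries. The glial list of 9 genes summed to between 30.1 and 90.9 CPM, and Fabp7 was at 28.9 ± 21.1 CPM against 185 ± 120 in double-negative cells. The 8 genes of the glutamatergic cerebellar nuclei list, which includes Meis2 and Slc17a6, summed to between 198 and 419 CPM in members, 206 and 249 in Eomes-high and 99.8 and 184 in double-negative cells.

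Of the 18 genes that stood among the 10 largest rises against Eomes-high or double-negative cells, 12 had a promoter in the table used here, and Dclk3, Fam19a1, Pnoc, Rspo2, Sulf1 and Tmem132d did not. The 12 were read from the RefSeq promoter table (build GRCm38.p6, from 250 bases before to 50 after the start of the first listed transcript). The letters CAGCTG, the core of an E-box of the kind that ATOH1 binds, read the same on both strands. They stood in 5 of the 12 promoters (Optc, Tmem132b, Gpr12, Hcrtr2 and Lgi1) and in 5355 of all 32851 promoters of that length (16.3%). The promoters of Optc (chr1:133907950-133908249, minus strand) and Hcrtr2 (chr9:76323574-76323873, minus strand) are shown as examples of the 5, picked after the matches were seen, with CAGCTG in capitals. The letters TAATTA, a core of homeodomain sites that also reads the same on both strands, stood in 1 of the 12 promoters and in 1738 of all 32851 (5.29%). A match describes the letters and is not a measured site.
Optc: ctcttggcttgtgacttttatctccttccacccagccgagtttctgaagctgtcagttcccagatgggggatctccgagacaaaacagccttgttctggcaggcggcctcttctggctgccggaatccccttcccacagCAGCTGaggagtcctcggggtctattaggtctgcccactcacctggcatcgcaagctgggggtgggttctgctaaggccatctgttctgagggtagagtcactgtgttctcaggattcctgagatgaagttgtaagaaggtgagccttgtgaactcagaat
Hcrtr2: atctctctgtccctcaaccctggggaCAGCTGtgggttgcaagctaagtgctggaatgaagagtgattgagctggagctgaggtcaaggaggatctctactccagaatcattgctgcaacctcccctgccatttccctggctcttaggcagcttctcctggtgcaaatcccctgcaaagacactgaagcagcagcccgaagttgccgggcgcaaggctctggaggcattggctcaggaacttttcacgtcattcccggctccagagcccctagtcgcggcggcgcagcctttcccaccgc

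Members were not uniform, and the groupings in this paragraph were picked after their values were seen, so they are given without a test. The 479 members without an Eomes UMI and the 826 with 1 to 4 had equal Car10 (222 CPM in both) but differed in other genes. Spock3 was at 125 CPM without and 57.8 with Eomes, Hcrtr2 at 77.5 and 29.3, Pnoc at 51.0 and 18.2, Tmem200a at 13.7 and 48.5, and Otx2 at 270 and 472. Spock3, Hcrtr2 and Pnoc, all higher in members than in Eomes-high cells, were thus higher in the members without Eomes, and Tmem200a and Otx2 were higher in those with it. Hox status split other genes. Calb2 was at 63.7 CPM in the 448 members with a Hox UMI and 283 in the 857 without, Id4 at 46.7 and 200, Pnoc at 9.6 and 43.4, and Ptn, the growth factor pleiotrophin, at 1091 and 586. Meis2, a homeobox cofactor of Hox proteins, was at 221 and 33.2 CPM. The values of this paragraph pool both genotypes, which differ in their shares of some of these groups. In members with a Hox UMI, library means of Meis2 were 261 CPM in control and 81.0 in mutant libraries. The 79 members with a Barx2 UMI had 62.5 CPM of Atoh1 against 10.8 in the other members, and 202 against 20.2 CPM of Pax3, a rhombic lip and dorsal neural tube factor. Library means of Atoh1 in the members with a Barx2 UMI were 101 CPM in control and 40.0 in mutant libraries. Of the 148 members with a Meis2 UMI, 22.3% were among the top doublet scores, against 6.31% of the others.

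The share of members was lower in the mutant than in the control libraries, without passing the test. Members made up 2.47%, 2.46% and 3.19% of kept cells in control libraries 1 to 3 and 2.32%, 1.89% and 1.84% in mutant libraries 1 to 3, from 199, 233 and 291 and from 264, 159 and 159 cells. The lowest control share was above the highest mutant share. The means were 2.71 ± 0.415% and 2.02 ± 0.266% (SD, n = 3 libraries each), a difference of -0.688 percentage points. The logit difference was -0.298 ± 0.174 (SE), with a limma adjusted p of 0.699 over the 7 classes, and 0.137 when littermates were blocked. The exact two-sided permutation p was 0.1, the smallest that 3 libraries against 3 allow. Over its alternatives the adjusted p ran from 0.0688 to 0.929. The lowest came with cells thinned to 5000 UMIs before the gate, where the shares were 2.68% in control and 1.87% in mutant libraries. Among the 7 classes the members were the ones whose groups did not overlap. As shares within one sort, these values rise and fall with the number of all other labeled cells.

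The same gate was applied to the other ages for comparison. At E14.5 it held 1239 cells, which made up 2.58%, 2.49% and 2.02% of control libraries 1 to 3 and 2.50%, 3.06% and 2.41% of mutant libraries 1 to 3, so that the genotypes overlapped. E14.5 cells in the gate were deeper, with library medians of 19328 to 22273 UMIs, and shares are not comparable between ages at unequal depth. In the 2 control libraries of dissected pontine nuclei at P5, the gate held 136 (1.2%) and 41 (0.62%) cells.

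**Figure D2:**
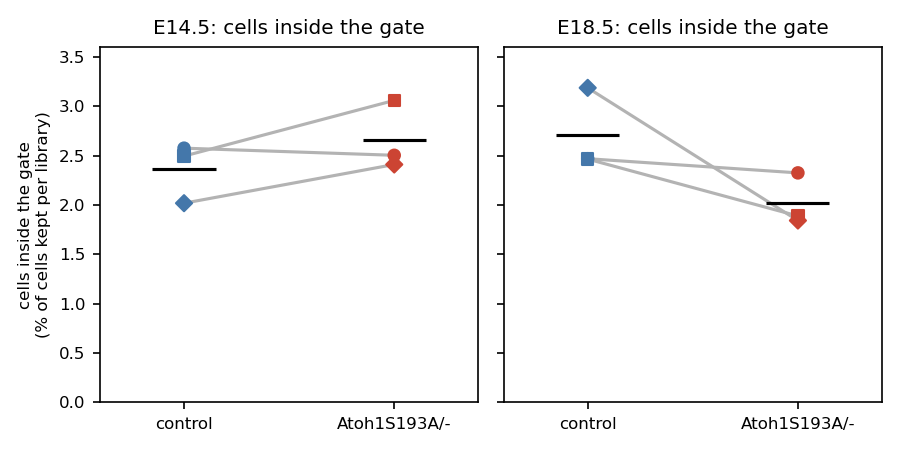
Percent of kept cells inside the gate in each embryonic library (points), by genotype, at E14.5 (left) and E18.5 (right), with gray lines joining littermates and black bars for the means. At E18.5 the 3 control libraries lie at 2.46% or above and the 3 mutant libraries at 2.32% or below, whereas the E14.5 libraries overlap.

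Between genotypes, members differed in 7 of 8771 genes tested, 5 higher and 2 lower in Atoh1S193A/- embryos. The test was edgeR's quasi-likelihood test on UMIs summed over members of each library, and a gene was counted where its FDR was under 0.05 and its log2 change exceeded 0.25 in size. This was 0.0798% of the genes tested, 0.057% higher and 0.0228% lower, and 472 genes had an unadjusted p under 0.05. In such sums, fewer cells with a transcript and less of it per cell cannot be told apart. When littermates were blocked, 30 genes were counted (0.342%), 14 higher (0.16%) and 16 lower (0.182%), including all 7.

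The filter of a UMI in 10% of the cells of a genotype bears on 4 of the 7 genes, which reached it only in the genotype where they were high and so could enter the test only with a difference in that direction. A UMI was found in 16.3% of control and 6.53% of mutant members for Pam, 2.63% and 10.3% for Barx2, 6.64% and 14.4% for Prlr, and 9.82% and 17.4% for Dpy19l1. Ptn (83.7% and 72.0%), Khdrbs3 (31.0% and 43.3%) and Nr2f1 (69.7% and 80.8%) passed it in both genotypes. Of the 30 genes of the blocked test, 24 passed it in both.

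Of Ptn and Pam, the genes counted lower, Ptn had the smaller SE. It was at 952, 866 and 951 CPM in control members and 664, 476 and 541 CPM in mutant members. All 3 mutant values lay below the lowest control value, with a log2 change of -0.73 ± 0.0959 (SE, n = 3 libraries each, edgeR FDR 0.00559). Pam, the enzyme that amidates neuropeptides, was at 28.3, 23.2 and 19.6 CPM in control and 10.0, 7.33 and 10.0 CPM in mutant members. It was lower by the greater factor, -1.34 ± 0.230 (edgeR FDR 0.022), from 10 to 69 UMIs per library. The genes lie at chromosome 6, 36714929 to 36810220 (Ptn), and chromosome 1, 97795114 to 98095646 (Pam), both on the minus strand of GRCm38. The CAGCTG letters stood in the RefSeq promoter of Pam (chr1:98095597-98095896, minus strand), which is shown because Pam had the largest fall of the 7 genes, and in 4 of the 24 promoters matched to the 30 genes of the blocked test (16.7%, against 16.3% of all promoters). TAATTA stood in 0 of these 24.
Pam: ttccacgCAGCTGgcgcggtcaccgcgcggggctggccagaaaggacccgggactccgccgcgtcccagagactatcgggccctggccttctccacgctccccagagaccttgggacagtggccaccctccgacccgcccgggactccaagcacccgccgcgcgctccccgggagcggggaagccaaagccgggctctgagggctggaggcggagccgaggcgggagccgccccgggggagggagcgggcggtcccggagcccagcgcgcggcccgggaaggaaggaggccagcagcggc

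Of the genes that were higher in mutant members, Barx2 had the largest change. It was at 5.33, 7.28 and 3.17 CPM in control and 25.02, 13.2 and 19.3 CPM in mutant members, a change of 1.97 ± 0.305 (edgeR FDR 0.0158) that rested on 10 to 70 UMIs per library. The lowest mutant value was above the highest control value. Prlr, the prolactin receptor, was at 8.20, 8.64 and 8.87 CPM in control and 19.3, 21.3 and 32.2 CPM in mutant members, a change of 1.44 ± 0.246 (edgeR FDR 0.022). Dpy19l1, which encodes a C-mannosyltransferase family member, was at 9.43, 13.2 and 10.8 against 28.6, 19.8 and 25.8 CPM, a change of 1.18 ± 0.216 (edgeR FDR 0.0401). Khdrbs3, an RNA-binding splicing regulator, was at 67.6, 65.0 and 70.0 against 101, 107 and 114 CPM, a change of 0.64 ± 0.105 (edgeR FDR 0.0184). Nr2f1, the nuclear receptor COUP-TFI, was at 251, 241 and 211 against 314, 369 and 316 CPM, a change of 0.50 ± 0.0943 (edgeR FDR 0.0481). In DESeq2 the adjusted p of Dpy19l1 was 0.0824, over the threshold, while those of Barx2, Prlr, Khdrbs3 and Nr2f1 stayed under 0.05. All 5 were higher in every mutant library than in any control library, as were 500 of the 8771 genes (5.7%), while 425 genes (4.85%) were lower in every mutant library.

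**Figure D3:**
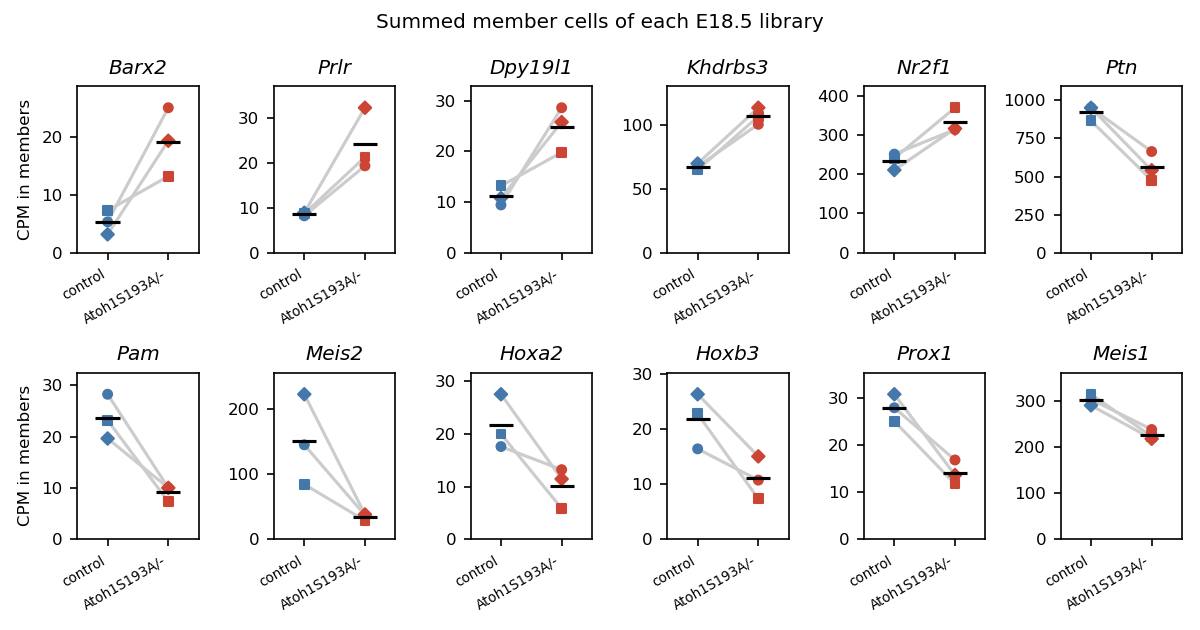
CPM of 12 genes in summed members of each E18.5 library (points; gray lines join littermates, black bars are means), each panel with its own axis from 0. All 12 panels show the groups apart, as did 5.7% of all genes tested in the higher and 4.85% in the lower direction. The first 7 panels, Barx2 to Pam, are the genes counted without the littermate block. Meis2 shows 3 low mutant values beside control values of 84.1 to 222 CPM.

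The count was sensitive to single libraries and to the cell filter. Without mutant replicate 3, 1 gene was counted, and it was not among the 7. Without control replicate 1, 2 genes were counted, 1 of them among the 7, and without control replicate 2 or 3 there were 3 each, 2 of them among the 7. With a mitochondrial limit of 5%, 0 genes were counted in edgeR, with 111, 83 and 89 control and 138, 25 and 54 mutant members, and 6 genes, 1 of them among the 7, when the littermate block was added (the pairing of both settings was chosen after seeing the data). Without cells that held hemoglobin or Ttr UMIs (also chosen after seeing the data) 5 genes were counted. Prlr and Dpy19l1 were not among them, and Barx2 was not tested there, since it no longer reached the filter of a UMI in 10% of the cells of a genotype. In members without Eomes 2 genes were counted, 1 of them among the 7.

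Meis2 depended on the model, and it too reached the filter only in control members (15.4% with a UMI, against 6.36% in mutant members). It was at 145, 84.1 and 222 CPM in control and 36.8, 28.6 and 37.9 CPM in mutant members, without overlap, a change of -2.14 ± 0.492 with an edgeR FDR of 0.617. With the littermate block it was -2.09 ± 0.138 (edgeR FDR 7.34e-08), and DESeq2 gave an adjusted p of 0.00249. Over all its alternatives the adjusted p ran from 9.54e-09 to 1.00. The TALE homeobox gene Meis1 was at 304, 315 and 291 against 238, 224 and 218 CPM (-0.42 ± 0.0825, edgeR FDR 0.0617, and 0.0106 with the block). Prox1, a homeobox factor, was at 27.9, 25.01 and 30.7 against 16.8, 11.7 and 13.6 CPM (-0.96 ± 0.195, edgeR FDR 0.0753, and 0.0296 with the block). Meis1 and Prox1 are named here because the block counted them.

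Hox genes did not pass with or without the block. Without the filter on low counts, Hoxa2 and Hoxb3 had edgeR FDRs of 0.00613 and 0.00878, the lowest of their alternatives, which ran up to 1.00. Hoxa2 was at 17.6, 20.0 and 27.6 CPM in control and 13.2, 5.86 and 11.5 CPM in mutant members (-1.04 ± 0.263, edgeR FDR 0.215, and 0.0905 with the block). Hoxb3 was at 16.4, 22.7 and 26.3 against 10.7, 7.33 and 15.0 CPM (-1.01 ± 0.257, edgeR FDR 0.215, and 0.0928 with the block). Hoxb2 was at 26.2, 39.6 and 40.9 against 30.7, 19.8 and 15.7 CPM, and these overlapped. Of the 17 Hox genes, 3 passed the filter and 0 were counted. Hoxa2 (16.5% of control and 7.04% of mutant members) and Hoxb3 (11.9% and 6.19%) reached the filter only in control members, so that their direction carries no weight here. None of the 27 BAF complex, 14 neuron maturation, 11 granule neuron differentiation or 7 Notch genes tested was counted, and with 0.0798% of all genes counted nothing is read from this about the lists. Their medians were 0.0072, -0.0978, -0.0858 and 0.15, against -0.0011 over all genes tested, of which 4413 were below 0 and 4358 above. Barx2 was the single gene of the lists counted without the block, and Meis2 joined it with the block. Bcl11b, a gate gene, was at 566, 567 and 600 CPM in control and 459, 513 and 555 CPM in mutant members, given as a description.

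The shares of members with a UMI of these genes restate the same UMIs as cells, for genes picked because their levels differed, and are a description. Members with at least 1 Hox UMI made up 35.7%, 41.2% and 48.1% of control members and 29.2%, 15.1% and 25.2% of mutant members. Those with a Meis2 UMI made up 16.1%, 10.3% and 18.9% against 6.06%, 6.29% and 6.92%. Those with a Barx2 UMI made up 3.02%, 3.00% and 2.06% against 11.4%, 10.1% and 8.81%. These 3 shares did not overlap between genotypes (over all genes tested, 5.7% were higher and 4.85% lower in level without overlap), and the share without Eomes did, at 38.2%, 38.6% and 37.8% against 35.2%, 38.4% and 30.8%.

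**Figure D4:**
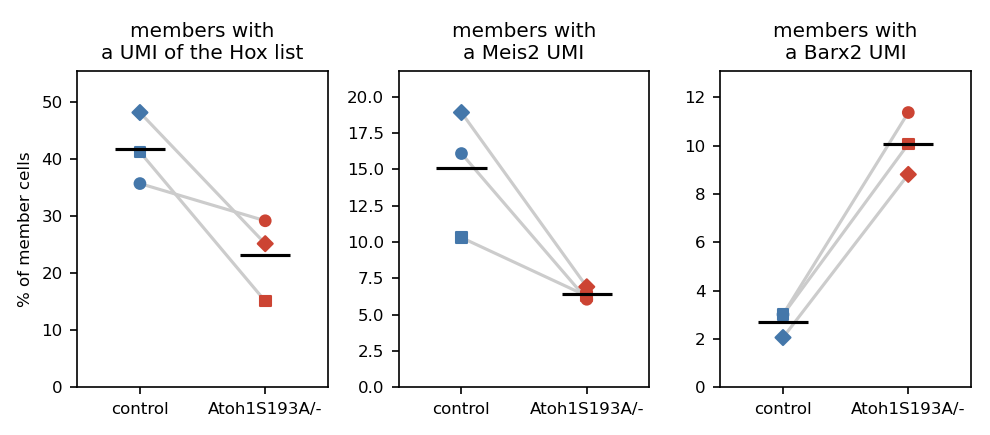
Percent of members of each E18.5 library (points; gray lines join littermates, black bars are means) with a UMI of any of 17 Hox genes, of Meis2 and of Barx2. Control libraries lie above mutant libraries in the first 2 panels, at means of 41.7% and 23.1% and of 15.1% and 6.42%, and below them in the last, at 2.69% and 10.1%.

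Pooled shares in the other classes were also lower in the mutant for Hox and Meis2. For Barx2 they were higher in the 3 other classes given here, which leave out Bcl11b-only cells. These directions did not hold in every littermate pair. With cells thinned to 5000 UMIs and pooled over libraries, a Hox UMI was found in 29.3% of control and 16.3% of mutant members, in 15.3% and 9.96% of Eomes-high, 27.3% and 21.6% of Bcl11b-only, 17.8% and 16.6% of Lmx1a-only and 17.7% and 14.9% of double-negative cells. In littermate pair 1 the Hox share was higher in the mutant in 3 of these classes, at 23.5% and 26.1% of Bcl11b-only, 17.5% and 21.9% of Lmx1a-only and 15.3% and 17.7% of double-negative cells, and the libraries of the genotypes overlapped in these 3. A Barx2 UMI was found in 1.44% and 6.79% of members, 4.65% and 7.46% of Eomes-high, 10.6% and 16.4% of Lmx1a-only and 2.59% and 2.96% of double-negative cells. A Meis2 UMI was found in 11.9% and 3.93% of members, 3.98% and 2.9% of Eomes-high, 9.54% and 6.85% of double-negative, 16.0% and 10.0% of Lmx1a-only and 9.56% and 6.13% of Bcl11b-only cells. Within the 800 members that had neither a Hox nor a Meis2 UMI, Ptn was at 685, 723 and 625 CPM in control and 457, 327 and 384 CPM in mutant libraries. In the same cells Pam was at 19.1, 25.1 and 13.95 against 12.4, 4.94 and 6.68 CPM, and Khdrbs3 at 56.5, 43.0 and 59.5 against 87.2, 92.9 and 108 CPM. Barx2 was at 5.57, 9.85 and 2.20 against 20.6, 15.8 and 26.7 CPM, Prlr at 7.96, 8.06 and 10.3 against 21.2, 23.7 and 43.4, Dpy19l1 at 7.96, 17.9 and 12.5 against 28.9, 19.8 and 33.4, and Nr2f1 at 269, 245 and 243 against 350, 419 and 358. These 7 genes were counted in a test that held the same cells, and a cell without a UMI can still express the gene, so the values are a description. The part of the Hox and Meis2 shares in the differences was not tested.

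Whether the genotype effect differed between members and double-negative cells was tested with an interaction term in edgeR, over both classes and with library as a term. The effect differed in 26 of 9441 genes (0.275%), 8 with the more positive change in members (0.0847%) and 18 with the more negative (0.191%), and 680 genes had an unadjusted p under 0.05. Pam had the largest difference, with -1.34 in members and 0.16 in double-negative cells, a difference of -1.52 ± 0.234 (edgeR FDR 0.00243). Dpy19l1 differed by 1.29 ± 0.218 (edgeR FDR 0.00287), Khdrbs3 by 0.77 ± 0.119 (edgeR FDR 0.00266) and Nr2f1 by 0.57 ± 0.0832 (edgeR FDR 0.00164). Its relative Nr2f2 (COUP-TFII), at 556, 455 and 445 CPM in control and 633, 602 and 576 CPM in mutant members, differed by 0.40 ± 0.0757 (edgeR FDR 0.0125). Cnr1, the cannabinoid receptor, was at 748, 608 and 725 against 498, 595 and 516 CPM in members, and differed by -0.52 ± 0.0806 (edgeR FDR 0.00269). Dach2, a transcription cofactor gene, was at 131, 148 and 137 against 81.5, 101 and 106 CPM and differed by -0.64 ± 0.107 (edgeR FDR 0.00287). Plcb1, a phospholipase of receptor signaling, was at 96.3, 96.8 and 89.0 against 67.2, 53.5 and 80.9 CPM and differed by -0.71 ± 0.114 (edgeR FDR 0.00266). Reln, the secreted glycoprotein reelin, was at 568, 425 and 452 against 422, 400 and 383 CPM and differed by -0.39 ± 0.0798 (edgeR FDR 0.029), and Meis1 by -0.38 ± 0.0739 (edgeR FDR 0.0176). Ptn, Prlr, Meis2 and the 3 Hox genes tested were not among the 26, and Barx2 did not reach the filter of this test. Without littermate pair 2 the count was 16, and it was 19 without pair 1 and 34 without pair 3.

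**Figure D5:**
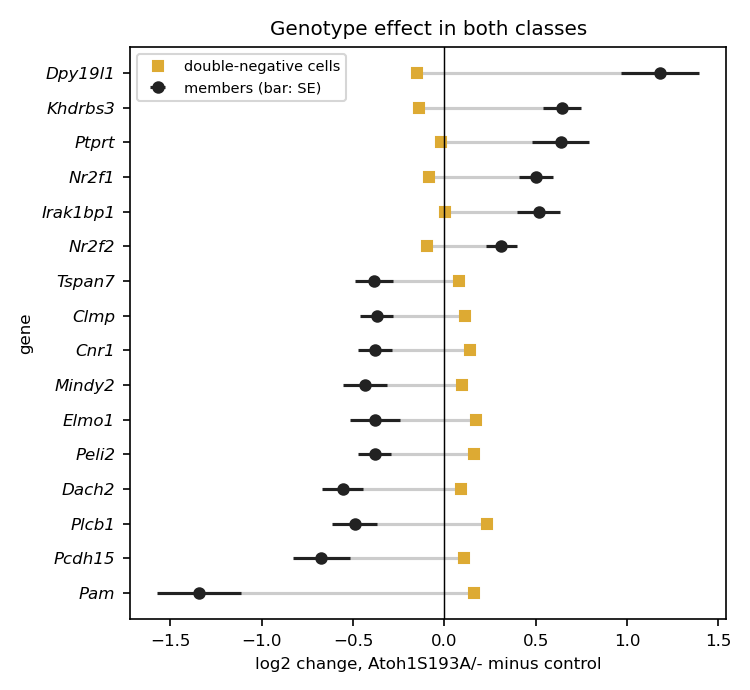
Log2 change between genotypes (horizontal axis, Atoh1S193A/- minus control) of 16 genes in members (black points, bars are SE) and in double-negative cells (yellow squares). Every square lies between -0.15 and 0.23, while the points of members run from -1.34 for Pam to 1.18 for Dpy19l1. The genes were chosen for the difference between the classes.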

How the data were processed

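The authors deposited raw UMI counts for every gene and barcode, without normalization, from 10x Genomics 3' libraries (v3.1) run through Cell Ranger against mm10 (5.0.1 in the headers of all E18.5 files, and 3.1.0 in those of E14.5 controls 1 and 2). Each of the 14 libraries held the same 31054 features, and the 6 E18.5 libraries held 108239001 to 183911797 UMIs in 9292 to 13021 barcodes. The methods state a mitochondrial limit of 1%, which was not used here. The limit used was 10%, and doublets were scored with Scrublet in scanpy 1.11.5 and removed only as an alternative. Counts of the cells of a class were summed per library, and genes detected in 10% or more of the cells on either side of a comparison were tested in edgeR 4.0.16 (TMM, quasi-likelihood F test, Benjamini-Hochberg). CPM divides these sums by the summed UMIs of the class. The SE given with an edgeR change is the size of the change divided by the square root of the test's F value. That F value draws on variation shared across genes, so the SE does not measure the spread between libraries or littermate pairs of the single gene. Shares were tested in limma 3.58.1 on logits with 0.5 cells added, and by an exact permutation test of 3 libraries against 3. DESeq2 1.42.0 was an alternative, and the scripts were tested on simulated data.

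Members and gene lists were chosen with earlier results of these data known. Named genes are those of 23 lists (271 genes), and, for each test, the 10 called genes that rose most and the 10 that fell most and that did not overlap between genotypes or changed alike in all 6 libraries. Meis1 and Prox1, and the genes of the groupings among members, were added after their values were seen. Pairs come from the labels' protocol text, which describes a mutant and a littermate control in each replicate. Same-numbered libraries deviated together (r = 0.303, 0.119 and 0.378 across genes, against -0.306 to 0.034 for other pairings). Deviations were taken from the mean of the 3 libraries of a genotype, so the low values of other pairings follow in part from this. The paper lists the same sex for both embryos of each E18.5 pair, female in pair 3 and male in the others. The block thus holds sex as well as litter, and these cannot be told apart. Promoters are from RefSeq (GRCm38.p6) and gene positions from the GRCm38 annotation. 1 gene of the lists is not reported here.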

Additional observations from a re-analysis of the deposited data

Results flagged for a closer look

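A difference between the genotype effect in Bcl11b+ Lmx1a+ cells and that in double-negative cells was found by the interaction term for 26 genes (edgeR's quasi-likelihood test, FDR under 0.05), and 16 of them had the largest differences in each direction among genes whose members did not overlap between genotypes. In each case the value is the log2 change in members minus that in double-negative cells. It was negative for Pam (-1.52), Pcdh15 (-0.76), Plcb1 (-0.71), Dach2 (-0.64), Peli2 (-0.55), Elmo1 (-0.55), Mindy2 (-0.53), Cnr1 (-0.52), Clmp (-0.48) and Tspan7 (-0.46). It was positive for Dpy19l1 (1.29), Khdrbs3 (0.77), Ptprt (0.64), Nr2f1 (0.57), Irak1bp1 (0.51) and Nr2f2 (0.40). In double-negative cells the change between genotypes of these 16 genes lay between -0.15 and 0.23, none with an adjusted p under 0.999 in edgeR. The genes were chosen by the difference and by members, so small changes in double-negative cells follow in part from the choice. Reln (-0.39), a gene of the granule lineage list, and Meis1 (-0.38), named after its values were seen, were also among the 26. Of the 16, Pam, Dpy19l1, Khdrbs3 and Nr2f1 were also counted in members alone, where Pam reached the filter on low counts only in control and Dpy19l1 only in mutant members, so that their direction there was set by the filter. Members were shallower than double-negative cells, and the part of depth or of the Hox and Meis2 shares in these differences was not tested.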

How the results depend on the processing

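No result reversed under any alternative run. The difference in the share of members stayed negative and short of the threshold under every alternative, from -0.841 to -0.448 percentage points when 1 library was left out. With the replicate block (littermate pairs) its adjusted p in limma was 0.137, and the block raised the count of genes that differed between genotypes from 7 to 30. The class comparisons already had library as a term, and without that replicate block they gave 340, 706, 520 and 379 genes against 341, 707, 524 and 389. The block left the share short of the threshold. Which genes were counted in the class comparisons with and without it was not compared.

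The count of 7 genes became 92 without the filter on low counts, 18 without likely doublets, 2 with Eomes at 0 and 0 with a mitochondrial limit of 5%, which also left fewer cells, and ranged from 1 to 8 with 1 library left out. DESeq2 counted 10. Without the filter the class counts rose to 1054 (Eomes-high), 2134 (double-negative), 1256 (Lmx1a-only) and 1232 (Bcl11b-only), over more genes tested. Without likely doublets they were 433, 863, 674 and 491. They ranged from 332 to 365, 690 to 751, 461 to 589 and 368 to 402 with 1 library left out. The count against Lmx1a-only cells was 343 after thinning, with fewer genes tested. The interaction count was 129 without the filter and 43 without likely doublets, and ranged from 16 to 34 with 1 littermate pair left out. The causes were not otherwise tested. Among 598 values of 38 genes named for genotype, 484 kept their side of the threshold, 62 newly passed and 52 no longer did. Only the 7 genes counted in the main test could stop passing, so all 52 fell on them. Most of the 484 were values of genes that stayed uncounted, so the total does not describe how stable the 7 were. Among 156 values of the 26 interaction genes, 108 kept their side and 48 no longer passed.

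Depth limits the gate, since 39.7% of members had a single Lmx1a UMI. Each genotype had 3 embryos.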
